A study of Homo sapiens with 4 samples.

Results

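The tetraspanin genes CD82, CD9, CD63, CD81, CD151, TSPAN3, TSPAN4, TSPAN5, TSPAN14 and TSPAN31 were examined in mRNA sequencing data of MDA-MB-231, a long-established triple-negative line of human breast cancer cells. They were chosen by gene symbol, with all rows of the deposited table that carry one of these names. This gave 10 genes with 42 transcripts, out of 15113 gene symbols with 43596 transcripts. The cells were treated for 24 h with DMSO, the solvent control, or with 10 µM KH-3, a small molecule that interferes with the RNA-binding protein HuR. Each condition had 2 libraries from biological replicates, and all 4 libraries come from the same unmodified line. The deposited table has no values per library. The value used here is the authors' mean normalized read count of each transcript, a single mean taken over libraries, and the sources used here do not state whether libraries of a 5 µM group named in the methods enter it. The levels below therefore describe the cells across the treatments together, no difference between KH-3 and DMSO was computed, and no value has a replicate error. Sequencing depth is unknown for the same reason.

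Tetraspanins are small membrane proteins that cross the membrane several times and expose a small and a large loop at the cell surface. They bind each other and partner proteins such as integrins, immunoglobulin superfamily proteins and membrane proteases, and gather them into membrane domains that act in adhesion, migration, cell fusion and the release of extracellular vesicles. CD82, also named KAI1, is known as a suppressor of metastasis, while CD151 is known for its binding to laminin-binding integrins and has often been linked to invasion. HuR, a member of the ELAV family, is known for stabilising mRNAs that carry AU-rich elements.

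The hallmark of the family is a run of cysteine, cysteine and glycine codons in the large loop. It is shown here because it is what the 10 genes share by sequence, while they were chosen by name. The coding sequence of the canonical transcript in GENCODE release 44 on hg38 was searched in frame on the coding strand. All 10 genes held the run between codons 129 and 156, against 2.35% of 11918 protein-coding genes with a row that held it anywhere in the coding sequence. As the run is the hallmark of the family, its presence in all 10 follows from the choice by name and is not a result. CD9, CD63 and CD81 held the run a second time elsewhere. The 27 bases around it are printed with the motif in capitals and with the span of the genome in hg38, which for 9 genes includes an intron.
CD82 (chr11:44615371-44618185, plus strand): caggtgaagTGCTGCGGCtgggtcagc
CD9 (chr12:6235325-6235499, plus strand): gcgttgaacTGCTGTGGTttggctggg
CD63 (chr12:55726238-55726702, minus strand): gattttaagTGCTGTGGGgctgctaac
CD81 (chr11:2395518-2395892, plus strand): acgcttgacTGCTGTGGCtccagcaca
CD151 (chr11:837352-837483, plus strand): gagttccacTGCTGTGGCagcaacaac
TSPAN3 (chr15:77052906-77054180, minus strand): cagctgcatTGTTGTGGAattcacaac
TSPAN4 (chr11:865612-865717, plus strand): gacttccgcTGCTGTGGCgtctccaac
TSPAN5 (chr4:98478787-98482007, minus strand): tattggcagTGCTGTGGGgcttttgga
TSPAN14 (chr10:80509469-80512167, plus strand): gctaaccagTGCTGTGGCgcatatggc
TSPAN31 (chr12:57746652-57746678, plus strand): agttttgatTGTTGTGGCttattcaac

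In 9 of the 10 genes an exon junction lay at the same place, after base 3 of the printed stretch. In TSPAN31 the stretch lay within 1 exon. The 9 capital bases took 6 forms, and TGCTGTGGC was shared by CD81, CD151, TSPAN4 and TSPAN14. CD82 with TGCTGCGGC, CD9 with TGCTGTGGT, TSPAN3 with TGTTGTGGA and TSPAN31 with TGTTGTGGC each had a form of their own among the 10 at this site.

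Gene levels were compared per length. The mean normalized read count of each listed transcript was divided by its length in kb, and the sum over the listed transcripts of a gene is its level, in normalized reads per kb. CD9 had the highest level of the 10 genes, at 1454. It was followed by CD81 at 1187 and TSPAN3 at 783. A middle group held TSPAN5 at 227, CD82 at 219, TSPAN14 at 183 and CD151 at 141. TSPAN31 at 65.2, TSPAN4 at 53.9 and CD63 at 17.1 were lowest. The order of TSPAN5, CD82 and TSPAN14 is not fixed, since it changed with the way length was handled, and whether any neighbours differ beyond the spread between libraries could not be examined.

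**Figure D1:**
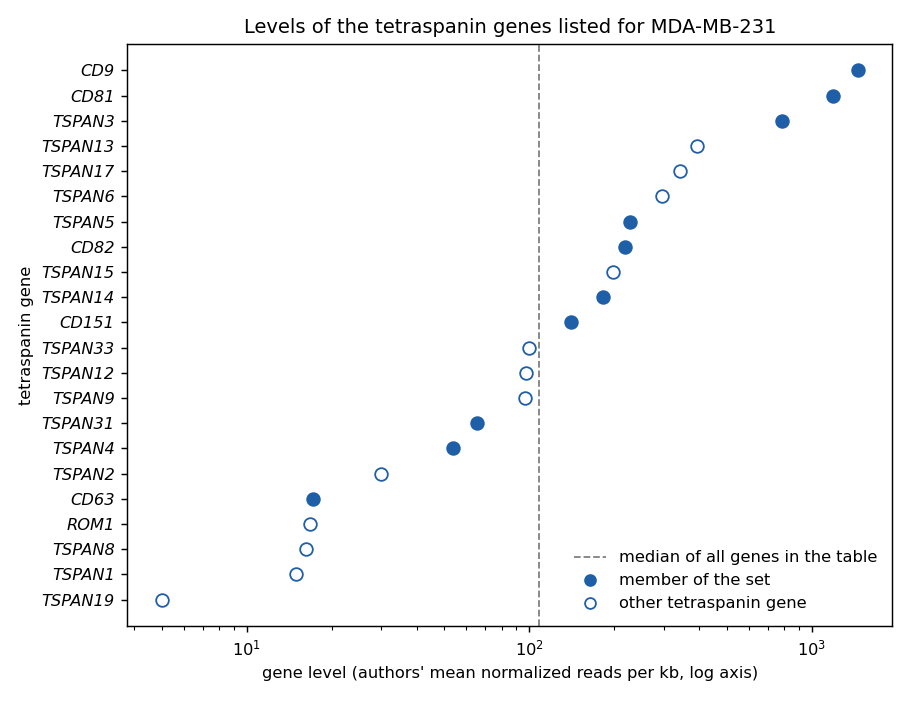
Levels of the 22 tetraspanin genes with a row, in the authors' mean normalized reads per kb on a log axis, with the 10 genes of the set as filled points and the other 12 as open points. CD9 stands highest at 1454 and TSPAN19 lowest at 5.03, and the dashed line marks the median of all 15113 genes at 108.

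Against all genes of the table, whose median level was 108, 7 of the 10 genes lay above the median. The level of CD9 was higher than that of 95.4% of the other genes, that of CD81 higher than 93.9% and that of TSPAN3 higher than 89.8%. CD82 lay above 66.6% of the other genes, and CD63 above 18.2%. The median of the 10 genes was 201, with quartiles of 84.1 and 644.

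CD82 (ENSG00000085117) occupies bases 44564427 to 44620358 of chromosome 11 in hg38 and is read from the plus strand. Of its 4 listed transcripts, the full-length coding transcript CD82-001 had the most reads, with a mean normalized read count of 138 over 2289 bases. CD82-014, a processed transcript of 891 bases with no defined reading frame, had 60.4. CD82-011, a coding transcript of 757 bases with 2 exons from 44618270 to 44619709, had 60.0. CD82-010, a retained-intron transcript of 1405 bases, had 16.6.

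Per kb, CD82-001 fell behind the shorter CD82-011 and CD82-014, while CD82-010 was lowest on both scales. CD82-011 made up 36.2% of the gene level, CD82-014 made up 30.9%, CD82-001 27.5% and CD82-010 5.38%. All bases of CD82-011 lay in exons of the other listed transcripts, as did 91.7% of those of CD82-014. The shares may depend on how eXpress, the authors' program for estimating reads per transcript, divided the reads of shared bases. This was not tested. Without division by length the leading share, held by CD82-001, was 50.2%. With protein-coding transcripts alone the level of CD82 was 140 in place of 219, and it stood at rank 5 of the 10 genes either way.

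The pentamer ATTTA, which has U for T in the mRNA and is the core of many AU-rich elements, occurred 3 times in the 3′UTR of the canonical CD82 transcript, which is 1232 bases long in release 44. The sites are shown because CD82 is the gene that gives the set its name and HuR is the target of the compound. They start at bases 488, 749 and 1223 of the 3′UTR, and the pentamer is in capitals.
CD82 site at 488 (chr11:44619606-44619626, plus strand): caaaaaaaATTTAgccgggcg
CD82 site at 749 (chr11:44619867-44619887, plus strand): actatgacATTTAtatcttta
CD82 site at 1223 (chr11:44620341-44620358, plus strand): taaagaggATTTAtaaca

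This is a density of 2.44 pentamers per kb for CD82, against 2.32 per kb over 11891 canonical 3′UTRs of protein-coding genes with a row. CD82 had the highest density of the 10 genes, and TSPAN4 at 2.08 and CD81 at 1.88 per kb came next. The pentamer was found in 7 of the 10 genes, a share of 70.0%, against 74.3% of the 11891. TSPAN3 held 7 sites in 5431 bases and TSPAN14 held 3 in 4655, with 2 copies of the longer form TATTTAT that contain the pentamer. TSPAN14 was the 1 gene of the 10 with this longer form, which 37.0% of the 11891 held. TSPAN31 held 2 sites, and TSPAN4, TSPAN5 and CD81 held 1 each. All these 3′UTRs are those of release 44 and can differ from the transcripts that were measured. TSPAN31-001 was listed with 1849 bases, while its 3′UTR alone has 2929 in release 44. The 3′UTRs of CD9, CD63 and CD151 held none, at lengths of 438, 238 and 639 bases. The search covered the RNA strand alone, and a match is a description of the sequence, not a HuR site.

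CD9 and CD81 are known for their part in cell fusion and immune signalling, and both are used as markers of extracellular vesicles. CD9 lies on chromosome 12 from 6199715 to 6238271, and its level came almost wholly from 1 coding transcript. CD9-001 had a mean normalized read count of 1587 over 1169 bases, the highest of the 42 transcripts, and made up 93.4% of the gene level. The other coding transcripts of CD9 had 86.1 and 21.9, and the processed transcript had 12.5. CD81, on chromosome 11 from 2376177 to 2397802, had 1131 for the coding transcript CD81-001. The retained-intron transcript CD81-009, with 898 bases, had 356 and made up 33.4% of the gene level. Its bases all lay in exons of other listed CD81 transcripts. With coding transcripts alone the level of CD81 was 744 in place of 1187.

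TSPAN3 lies on chromosome 15 (minus strand) from 77041404 to 77083984. The processed transcript TSPAN3-011 of 550 bases had a mean normalized read count of 223 and made up 51.9% of the gene level. Its bases all lay in exons of other listed TSPAN3 transcripts. As for CD82, this share may depend on how eXpress divided the reads of shared bases, which was not tested. The coding transcripts TSPAN3-012, TSPAN3-008 and TSPAN3-001 had 252, 222 and 196 reads over 1592, 1340 and 6467 bases. By reads alone, 4 transcripts of the gene were thus close to each other, and the leading share fell to 26.9% without the division by length. With coding transcripts alone the level of TSPAN3 was 370 in place of 783, and it stood at rank 3 again.

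TSPAN5 and TSPAN14 belong to the TspanC8 group, which guides the membrane protease ADAM10 out of the endoplasmic reticulum and to its substrates. For TSPAN5, on chromosome 4 (minus strand) from 98470367 to 98658611, the nonsense-mediated decay transcript TSPAN5-002 had a mean normalized read count of 480 over 3242 bases. The coding transcript TSPAN5-001 had 257 over 3365 bases. The former made up 65.2% of the gene level and the latter 33.6%. In release 44 they shared nearly their whole sequence, with 98.8% of the bases of TSPAN5-001 in exons of the other listed transcripts. With coding transcripts alone the level of TSPAN5 was 76.4 in place of 227, which placed it at rank 6 and TSPAN14 at rank 4. For TSPAN14, on chromosome 10 (plus strand) from 80454265 to 80533124, the coding transcript TSPAN14-003 had 740 over 5476 bases and made up 74.0% of the level. The processed transcript TSPAN14-005 had 91.7 and the coding transcript TSPAN14-002 had 63.7. The latter was listed with 16183 bases, so it added 2.15% per kb.

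CD151, on chromosome 11 (plus strand) from 832887 to 839831, was listed with 7 transcripts, the most of the 10 genes, and all had few reads. The retained-intron transcript CD151-004 led with a mean normalized read count of 71.4, followed by the coding transcript CD151-201 with 42.2 and the nonsense-mediated decay transcript CD151-002 with 25.6. The other 4 had between 8.24 and 16.0. Retained-intron transcripts made up 52.4% of the gene level and coding transcripts 34.6%. The canonical coding transcript of release 44 had no row in the table. TSPAN4, known for its part in the formation of migrasomes, vesicles that form on the retraction fibres of migrating cells, lies next to CD151 from 842812 to 867116. It had 5 transcripts with 12.9 to 23.3 reads. Retained-intron transcripts made up 47.9% of its level, and its canonical transcript had no row either. Whether the missing rows shifted the type shares of CD151 and TSPAN4 was not tested.

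**Figure D2:**
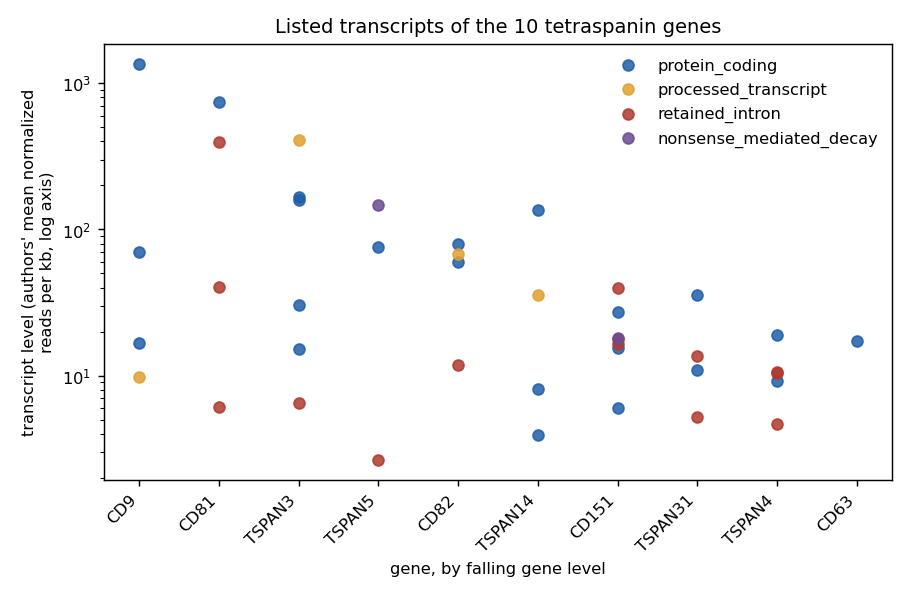
Levels of the 42 listed transcripts of the 10 genes in the authors' mean normalized reads per kb on a log axis, 1 point per transcript, coloured by the transcript type in the table and with genes in falling order of gene level. For CD9 a single coding transcript stands at 1358, while the transcripts of CD151 lie between 6.02 and 39.6.

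TSPAN31 lies on chromosome 12 (plus strand) from 57738013 to 57750219 and overlaps CDK4, the cyclin-dependent kinase of the early cell cycle, on the opposite strand. Its coding transcript TSPAN31-001 had a mean normalized read count of 65.7, and TSPAN31-002 had 37.4. Of the bases of TSPAN31-002, which has the same length in both releases, 39.9% lay in exons of CDK4, and for the retained-intron transcripts TSPAN31-003 and TSPAN31-004 it was 23.6% and 23.2%. CDK4 itself had a level of 383, above the 65.2 of TSPAN31. Whether strand was used to assign reads is not given in the sources used here, so the level of TSPAN31 is uncertain where the genes overlap. For CD151 the overlap was with POLR2L on the opposite strand, a gene with a level of 3331. It covered 10.4% of CD151-002 and 18.6% of CD151-018, which have the same length in both releases. For CD82 the overlap was with CD82-AS1 on the opposite strand, which covered 19.9% of CD82-010 and 14.0% of CD82-014, both of equal length in the releases. CD63-AS1 covered 9.73% of CD63-001. Neither CD82-AS1 nor CD63-AS1 had a row under that symbol, so no level can be given for them. In all, 7 of the 10 genes had a transcript whose exons overlapped another gene. In release 44 the overlap was 4.16% for TSPAN3-001, 2.02% for CD81-001 and 1.48% for TSPAN14-007. The share over all genes was not computed, so the count is not a result about tetraspanins.

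CD63, a tetraspanin of late endosomes, lysosomes and exosomes, lies on chromosome 12 (minus strand) from 55725323 to 55729707. It had 1 listed transcript, CD63-001, with a mean normalized read count of 21.1 over 1233 bases. This put CD63 at 1.18% of the level of CD9, or 84.8-fold below it. The annotation of the gene is crowded. Of the bases of its canonical transcript, 59.4% lay in more than 10 annotated transcripts, and that canonical transcript had no row. For TSPAN4 this share was 76.9%, for CD81 46.4%, for CD151 41.3%, for CD9 16.9%, for TSPAN31 5.74% and for CD82 1.31%. For TSPAN3, TSPAN5 and TSPAN14 it was 0%. Each of these 3 had 10 annotated transcripts by the count used, just at the limit, so no other share was possible. The authors mapped reads to transcripts with STAR at default settings, which drop a read that maps to more than 10 places.

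Over all protein-coding genes with a row, the median level was lower in the classes with such overlap than in the class without, though not in steady steps. Among listed genes with no such base the median level was 159, over 10513 genes. It was 116 over 1710 genes with up to 50% of such bases, 57.3 over 208 genes with 50 to 90% and 67.2 over 54 genes with more. The share of genes that had a row went another way, with 61.0% in the class without overlap and 83.0%, 76.2% and 69.2% in the others. CD63 and TSPAN4 belong to the class of 50 to 90%, where CD63 lay below the lower quartile of 22.1 and TSPAN4 close to the median. CD9 and CD81, in the class of up to 50%, had levels above its upper quartile of 287. CD151, in the same class, lay above its median of 116. The part of dropped reads in any of these levels was not tested, so the low values of CD63 and TSPAN4 cannot be read as low expression. The same limit holds for CD81 and CD151, with 46.4% and 41.3% of such bases, and so for their places among the 10 genes. Such bases also differed between transcript types. In TSPAN4 they made up 61.5% and 72.6% of the coding transcripts, against 31.5% to 39.4% of the retained-intron ones. In CD81 it was 46.4% of CD81-001 against 10.9% to 50.4%. In CD151 the ranges overlapped, at 28.2% to 41.5% for coding and 27.7% to 43.4% for retained-intron transcripts. Their effect on the shares of transcript types was not tested. The count of annotated transcripts was taken from release 44, with IDs up to the highest in the table, as a stand-in for release 24.

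**Figure D3:**
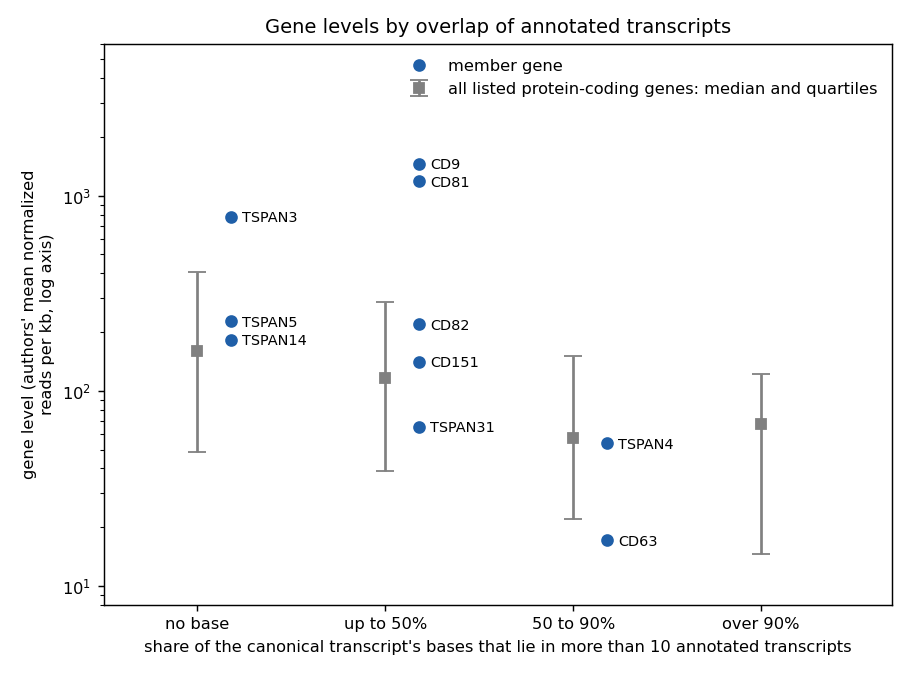
Gene levels in the authors' mean normalized reads per kb on a log axis, by the share of the canonical transcript's bases that lie in more than 10 annotated transcripts. Grey squares with bars are the median and quartiles of all listed protein-coding genes, which run from 159 with no such base to 57.3 and 67.2 in the last classes, and blue points are the 10 tetraspanin genes.

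Across the 10 genes, 22 of the 42 transcripts were protein-coding, 14 had a retained intron, 4 were processed transcripts and 2 were targets of nonsense-mediated decay. Coding transcripts made up 70.7% of the summed level of the 10 genes, against 79.8% over all listed protein-coding genes, and retained-intron transcripts made up 13.4% against 9.10%. Among genes with more than 1 listed transcript the gaps were smaller, with 70.6% against 75.1% for coding and 13.5% against 11.2% for retained-intron transcripts. Whether dropped reads shifted these shares was not tested. A coding transcript led in 7 of the 10 genes. Over all listed protein-coding genes this was so in 83.9%. The exceptions were TSPAN3, TSPAN5 and CD151. In 7 of the 10 genes a single transcript held over 50% of the level, CD63 with its single row among them. The others were CD82, CD151 and TSPAN4, each spread over 4 or more transcripts. CD82 passed 50% with coding transcripts alone and without division by length. Among the 9 genes with more than 1 listed transcript, 66.7% had over 50% of the level in a single transcript. The share was 70.3% of all protein-coding genes with more than 1. The share of genes with 1 dominant transcript is near that background and is not a result about tetraspanins.

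**Figure D4:**
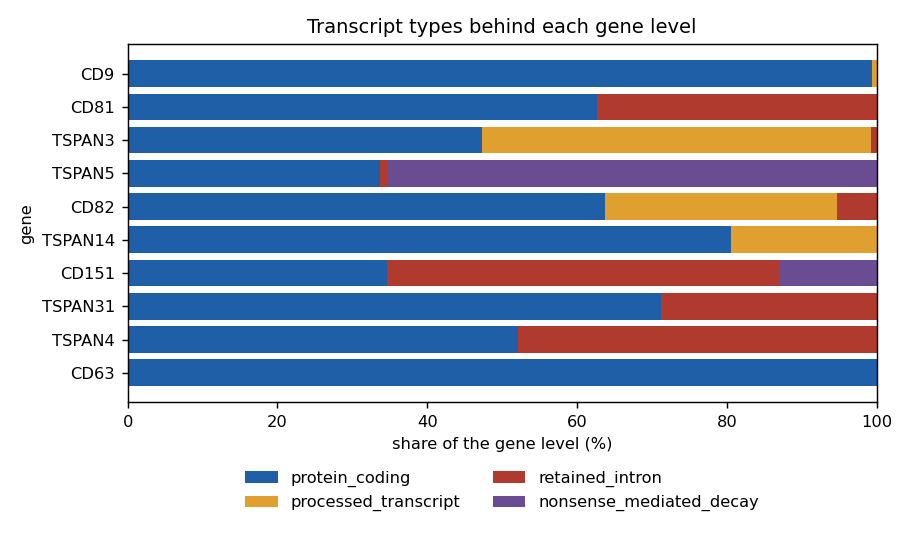
Share of each gene level, in percent, that comes from each transcript type in the table, for the 10 genes in falling order of level. Coding transcripts make up 99.3% for CD9 and 63.7% for CD82, but 33.6% for TSPAN5, where the nonsense-mediated decay transcript makes up 65.2%.

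Of the 33 human tetraspanin genes, 22 had a row, so 12 lie outside the set. TSPAN13 at 392, TSPAN17 at 343 and TSPAN6 at 295 were the highest of these and stood between TSPAN3 and TSPAN5. TSPAN15 at 198 stood between CD82 and TSPAN14. TSPAN33, TSPAN12 at 97.7 and TSPAN9 at 96.7 lay just below the median of all genes. TSPAN12 is a co-receptor of Norrin signalling in the eye. TSPAN2 at 29.9, ROM1 at 16.8, a protein of photoreceptor discs, TSPAN8 at 16.2, TSPAN1 at 15.0 and TSPAN19 at 5.03 were lowest, and TSPAN19 was listed through a retained-intron transcript alone. The remaining 11 genes had no row, CD37 and CD53 of blood cells and the urothelial UPK1A and UPK1B among them, and are not analysed here. The lowest mean normalized read count that the table lists is 7.34.

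The TspanC8 genes could be set beside each other. TSPAN17 was highest at 343, followed by TSPAN5 at 227, TSPAN15 at 198, TSPAN14 at 183 and TSPAN33 below the median of all genes, while TSPAN10 had no row. ADAM10, their client, had a level of 1188, of which its leading transcript, of the nonsense-mediated decay type, made up 40.4%. MMP14 and ADAM17, other membrane proteases, had 456 and 351. All 6 listed integrin genes had rows, with a median of 458. ITGB1, the β subunit shared by many integrins, had 4046, ITGA3, the laminin-binding α subunit that pairs with CD151, had 1949, and ITGA5, an α subunit of the fibronectin receptor, had 574. CD151 itself had 141. Its canonical transcript had no row, and 41.3% of that transcript's bases lay in more than 10 annotated transcripts. Its distance from the integrin genes is therefore not interpreted. The 3 EWI genes encode immunoglobulin superfamily proteins, partners of CD9 and CD81 among them. They had lower levels than CD9 and CD81, with IGSF8 at 324, IGSF3 at 143 and PTGFRN at 68.3. Of the genes of exosome formation PDCD6IP had 2693, TSG101 had 1443 and SDCBP had 1241. A retained-intron transcript led PDCD6IP with 34.9% of its level and TSG101 with 55.2%. The value of CD63, 17.1, cannot be read as low expression, so its distance from these genes is not interpreted. Of the other membrane partners EGFR had 1242, MET had 537 and CD44 had 427.

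The markers of the line were checked in the same table. All 5 mesenchymal-like markers had rows, with VIM, the intermediate filament vimentin, at 10135. PLAU had 1544, EGFR 1242, CD44 427 and SPARC 209, all below the epithelial marker KRT19. A nonsense-mediated decay transcript led VIM with 55.9% of its level, and a retained-intron transcript led SPARC with 59.8%. Of 6 luminal or epithelial markers 3 had rows, with KRT19 at 2426, ERBB2 at 44.3 and EPCAM at 43.3, while CDH1, ESR1 and PGR had none. The 3 blood cell markers had no row.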

How the data were processed

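The authors made libraries with an Illumina mRNA kit from MDA-MB-231 cells after DMSO or 10 µM KH-3, 2 per group by the sample titles. According to the methods, reads were mapped with STAR at default parameters to GENCODE release 24 transcripts, reads per transcript were estimated with eXpress, and groups were compared by the authors with DESeq2. Versions are not given in the sources used here. The deposited table gives a signal, the authors' mean normalized read count over libraries, which was the sole measurement used. Its other columns hold the authors' log2 fold change, p-value and q-value for the treatment. They are the study's own comparison and were not used, so no test between the treatments was made. The planned test on counts per library could not be run, as the table has none.

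Levels were reads per kb of the transcript length in the table, summed per gene. All transcripts above the table's own lower limit were kept. Coordinates and sequences are from GENCODE release 44 on hg38, the build named in the labels. All 42 transcripts were found there by ID, 28 with equal length. No protein sequences were used. The genes and lists were chosen with earlier results of these data known. All 10 genes, each other tetraspanin gene with a row and up to 3 genes of each partner list, by level, were named. Of the cell line markers, the mesenchymal-like genes, the epithelial genes with a row and those without one were named. CDK4, POLR2L, CD82-AS1 and CD63-AS1 were added after their overlaps were seen. The computations were tested on simulated data. Python 3.11.15, numpy 2.4.6, pandas 2.3.3 and matplotlib 3.10.9 were used.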

Additional observations from a re-analysis of the deposited data

How the results depend on the processing

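The table gives 1 pooled value per transcript, so depth, the error of every level and the weight of a single library are unknown. No paired analysis was possible because the table has no values per library, and for the same reason the test between the treatments, its alternatives without single replicates, with another tool and without a filter were not run. CD9, CD81 and TSPAN3 held ranks 1, 2 and 3 of the 10 genes with coding transcripts alone, without division by length, with transcripts of at least 50 reads and with 200 bases subtracted from each length. With transcripts of at least 50 reads, 8 genes were left, and the level of CD151 was 39.6 in place of 141 and that of TSPAN31 35.5 in place of 65.2. CD82 was at rank 5 but at rank 6 without division by length and at rank 4 with 200 bases subtracted. CD63 and TSPAN4 had no transcript with at least 50 reads. A single transcript held over 50% of the level in 7 genes, in 9 with coding transcripts alone, and in 6 without division by length. CD82 passed 50% in both alternatives, at 56.8% and 50.2%. TSPAN3 fell below it in both, at 44.9% and 26.9%, and TSPAN31 without division by length, at 46.3%. With coding transcripts alone the levels of CD151 and TSPAN4 were 48.8 and 28.1. Of the 22 tetraspanin genes with a row, 21 had a coding transcript and 16 had a transcript with at least 50 reads.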
